A study of Mus musculus with 16 samples.

Results

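The genes described are 34 genes of the hypoxia response and of glycolysis. The set was chosen by name and not by a measured value, though earlier results of these data were known. A gene was measured where at least 1 probe set, a group of short oligonucleotides that together read a transcript on the array, carried its symbol alone in the platform annotation. For a gene with several such probe sets, the probe set of highest mean over all arrays stood for it. By this rule 32 of the 34 genes were measured, by 70 probe sets in all, beside 18193 genes tested on the array. Eno1 and Gpi1 were not analysed here. Gapdh was read only by control probe sets of the manufacturer, which stayed out of the fits, so 31 of the genes were tested and Gapdh was compared by a separate permutation test.

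Transcripts were measured in 16 tumors of B16-OVA, a mouse melanoma line that expresses chicken ovalbumin as a model antigen, 1 array per tumor and 4 tumors per group. The line was injected with Matrigel under the skin of the flank of C57BL/6-Ly5.1 mice aged 6 to 12 weeks, and all tumors were taken at day 18 after inoculation, after about 2 weeks of treatment. Control mice received vehicle and control IgG. The CD40 group received vehicle and anti-CD40, an agonist antibody of the mIgG1 isotype against a receptor of antigen-presenting cells, on treatment days 3, 5 and 7 and again 1 day before analysis. The MEKi group received control IgG and 30 mg/kg per day of GDC-0623, which blocks MEK, the kinase upstream of ERK. GDC-0623 and anti-CD40 were combined in the MEKi+CD40 group. The antibody of the control IgG groups followed the same schedule. The samples carry no label for experimental batch, and each tumor is treated as a separate mouse.

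All values are log2 levels as deposited, so a difference of 1 is a 2-fold change. The background level of the arrays was 4.94, and the mean of each of the 32 genes lay above it. Melanocyte genes, which mark the tumor cells, averaged 13.46 to 13.77 in each of the 16 tumors. The highest value of any probe set was 14.75, and signals near the top of the range can understate a difference in these genes. Other cell types differed between groups and between tumors of 1 group. The mean of 7 macrophage genes was 6.90 to 9.04 in control and 8.80 to 10.94 in CD40 tumors. It was 5.42 to 8.01 in MEKi and 6.67 to 10.30 in MEKi+CD40 tumors. The part of such cells in the group differences below was not tested. The mean of 15 skeletal muscle genes was 11.80 in MEKi+CD40 tumor 1, 8.93 in MEKi+CD40 tumor 3 and 7.57 in CD40 tumor 3, against 4.60 to 5.51 in the other 13 tumors. The mean of 7 fibroblast genes was 12.44, 11.02 and 11.23 in those 3 tumors and 11.59 in MEKi tumor 3, against 7.84 to 9.15 elsewhere. In MEKi+CD40 tumor 1 the 3′ end of Gapdh read 0.38 above its 5′ end, against at most 0.08 in the others, a sign of RNA quality. Differences between pairs of groups were examined without each of these 4 tumors, and without the 3 with muscle transcripts. This covered the tested genes, each on the probe set that stood for it, and the phosphofructokinase gene Pfkm. A named difference of at least 0.2 that moved by over 1.5 times is given both ways. Other probe sets and other genes were not all examined in this way. In whole-tumor RNA, fewer cells of a type and less RNA per cell cannot be told apart.

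Hypoxia-inducible factors (HIF) are transcription factors whose alpha subunit is made continually and destroyed while oxygen is present. Prolyl hydroxylases of the Egln family use oxygen to mark the alpha subunit for destruction, and when oxygen falls the subunit persists and switches on genes for glucose uptake, glycolysis, blood vessel growth and pH control. Tumors also run glycolysis in the presence of oxygen, turning glucose to lactate, and growth signalling through the ERK pathway is known to raise HIF and glycolytic enzymes in melanoma.

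HIF binds a DNA sequence, the hypoxia response element, whose core commonly reads ACGTG on either strand (CACGT when read from the opposite strand). Only this form of the core was searched for. In RefSeq promoter windows on GRCm38.p6, the 250 bases before each annotated start were searched for it. It was found in 23 of 44 windows of the measured genes (52.3%) and in 5444 of 32851 windows of all genes (16.6%). The window table held 31 of the 32 genes, and Ndrg1 was not among them. Genes of this kind became known partly through such elements, so the share describes how the set was made up. ACGTG overlaps the motif CACGTG, which was in 4 of the 44 windows (9.1%) and in 6.0% of all windows. Below are stretches for some of the genes that held a match, on the strand of the gene, with each match in capitals. Each surrounds the match nearest the outermost start.
Egln1, chr8:124949300-124949340, minus strand: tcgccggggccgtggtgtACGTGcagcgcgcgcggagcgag
Egln3, chr12:54204081-54204121, minus strand: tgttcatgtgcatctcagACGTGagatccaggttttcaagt
Ddit4, chr10:59951935-59951975, minus strand: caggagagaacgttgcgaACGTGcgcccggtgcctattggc
Pfkfb3, chr2:11553967-11554007, minus strand: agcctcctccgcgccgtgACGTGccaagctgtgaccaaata
Car9, chr4:43506990-43507025, plus strand: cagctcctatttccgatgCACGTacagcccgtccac
Slc2a1, chr4:119108691-119108731, plus strand: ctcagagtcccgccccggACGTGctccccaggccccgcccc
Ldha, chr7:46845752-46845792, plus strand: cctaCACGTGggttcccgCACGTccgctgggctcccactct
The Car9 match begins 18 bases before the start, and the Ldha stretch holds 3 overlapping or neighbouring matches. Of the 2 Ldha windows 1 held a match, as did 1 of the 2 Vegfa windows, which is not shown. The windows of Pdk1, Aldoc, Higd1a and Adm held no match, which says only that these letters are not in those windows.

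Across the 4 groups, the differences of the genes from control were mostly small, though not smaller than over the array. The median absolute difference of the 31 genes from control was 0.10 in CD40, 0.12 in MEKi and 0.18 in MEKi+CD40 tumors. Over all genes it was 0.09, 0.09 and 0.16. On the probe set that stood for each gene, 1 of 31 was called in any comparison. That gene was Egln1, the main oxygen-sensing prolyl hydroxylase, which was higher in MEKi+CD40 than in CD40 tumors. The call depended on the probe set: others of Higd1a and Aldoc passed in that comparison, and a second of Egln1 did not. Of the 31 genes, 20 had several probe sets, and the others are described below for Egln1, Vegfa, Pdk1, Aldoc and Higd1a only. A gene was called at an adjusted p under 0.05, from limma with Benjamini-Hochberg adjustment over 45037 probe sets. The 3 comparisons with control share the same 4 control tumors.

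**Figure D1:**
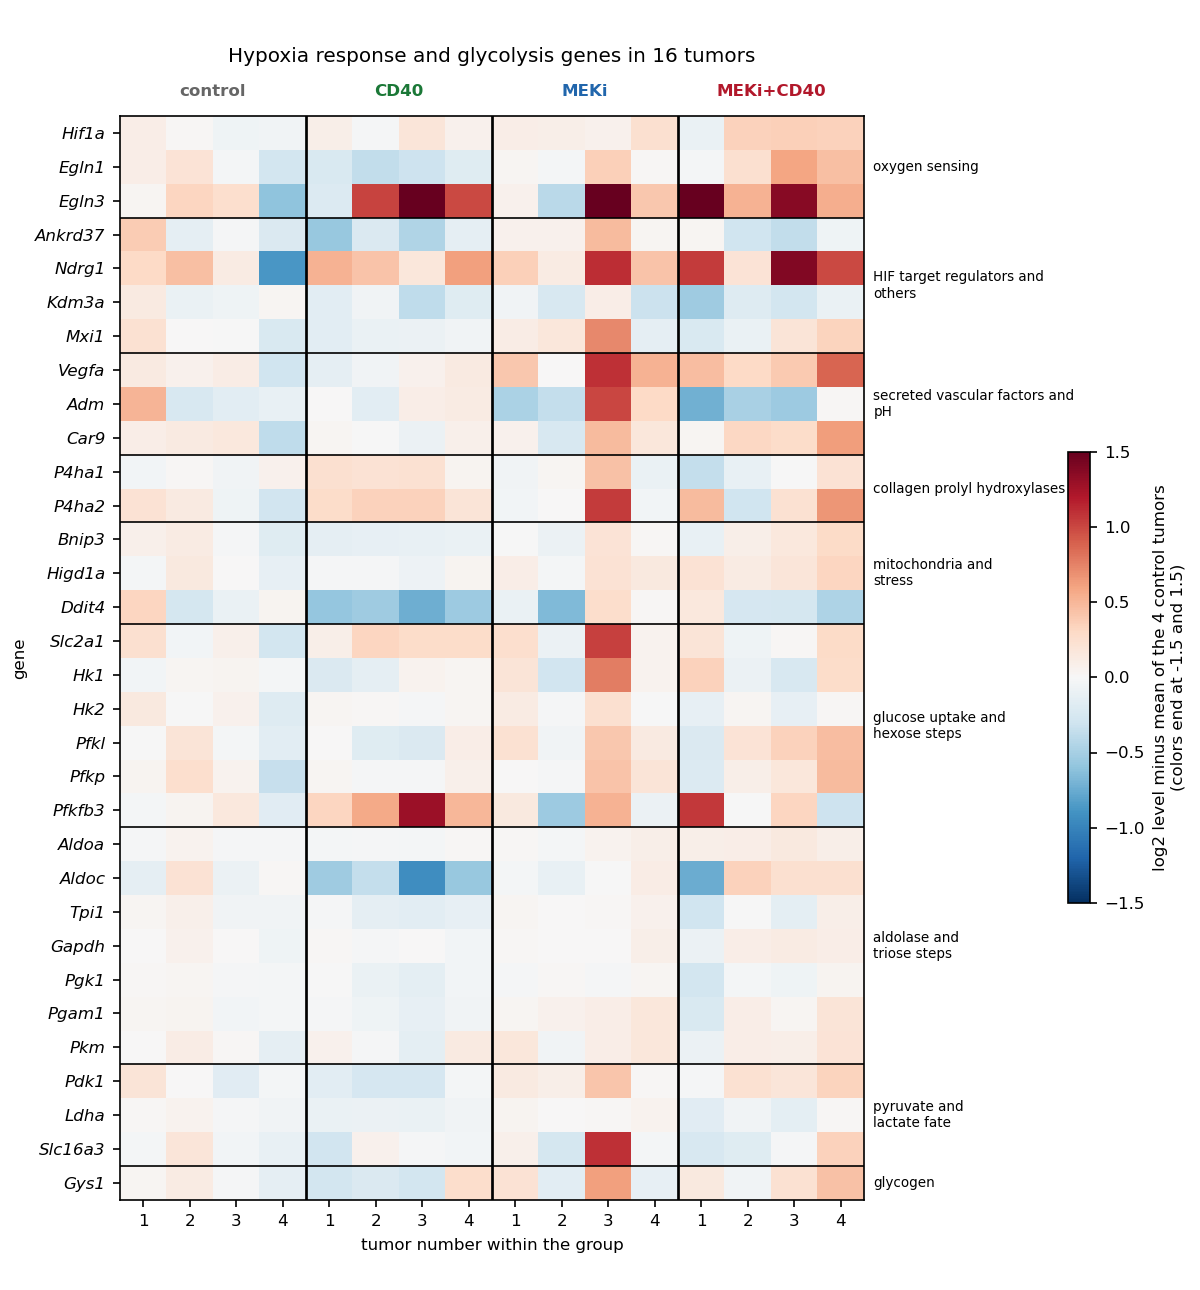
Each cell is the log2 level of 1 gene (row) in 1 tumor (column) minus the mean of the 4 control tumors, with genes grouped by role and colors ending at −1.5 and 1.5. MEKi tumor 3 is the most uniformly red column, with 30 of 32 genes above the control mean, and the rows from Tpi1 to Pkm are pale throughout.

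In CD40 against control tumors none of 31 genes was called, and 0% of all 18193 genes was. At an unadjusted p under 0.05, 3 genes were higher and 4 lower in limma, beside 9.98% of all genes in either direction. The median difference of the 31 genes was −0.07, against −0.03 over all genes, and it ranged from −0.09 to −0.01 when each tumor was left out in turn, the latter without control tumor 2. All CD40 tumors lay above all control tumors for 1 gene (1.7% of all genes) and below them for 3 genes (3.95% of all genes).

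GDC-0623 alone gave small positive differences whose median depended on single tumors. In MEKi against control tumors none of 31 genes was called (0% of all genes), 1 was higher and none lower at an unadjusted p under 0.05 (7.9% of all genes in either direction), and the groups overlapped for every gene, while 2.49% of all genes lay wholly higher and 2.11% wholly lower. The mean was higher in MEKi tumors for 28 genes and lower for 3, with a median of 0.12, against 0.01 over all genes, of which 51.6% were higher. Without MEKi tumor 3, 19 were higher and 12 lower, with a median of 0.02, and 55.0% of all genes were higher. Without MEKi tumor 2, 29 were higher and 2 lower, with a median of 0.19, and 49.5% of all genes were higher.

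The combination gave positive median differences against control and against CD40 alone. In MEKi+CD40 against control tumors none of 31 genes was called (0.0055% of all genes), 4 were higher and 1 lower at an unadjusted p under 0.05 (25.4% of all genes in either direction), and the median difference was 0.11, against 0.03 over all genes. Without control tumor 4 that median was 0.03, and without MEKi+CD40 tumor 4 it was 0.04. In this comparison 3 genes lay wholly higher (6.93% of all genes) and none wholly lower (10.4% of all genes). In MEKi+CD40 against CD40 tumors 1 of 31 genes was called, higher, beside 6.44% of all genes, so the share among these genes was not above that of the array. At an unadjusted p under 0.05, 8 were higher and 1 lower, beside 25.5% of all genes in either direction. Among these genes 6 lay wholly higher, where 9.58% of all genes did, and none wholly lower, where 8.2% did. The median difference was 0.15, against 0.04 over all genes, and 0.08 without MEKi+CD40 tumor 4.

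Against MEKi tumors, MEKi+CD40 tumors gave a median difference of −0.02, which turned to 0.08 without MEKi tumor 3. No gene was called (1.55% of all genes), 1 was lower and none higher at an unadjusted p under 0.05 (24.6% of all genes in either direction), and none lay wholly higher or lower (7.05% and 8.99% of all genes). The interaction, which is the effect of anti-CD40 with GDC-0623 less its effect with vehicle, called none of 31 genes and 0% of all genes, with 2 genes positive at an unadjusted p under 0.05 (17.6% of all genes in either direction).

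**Figure D2:**
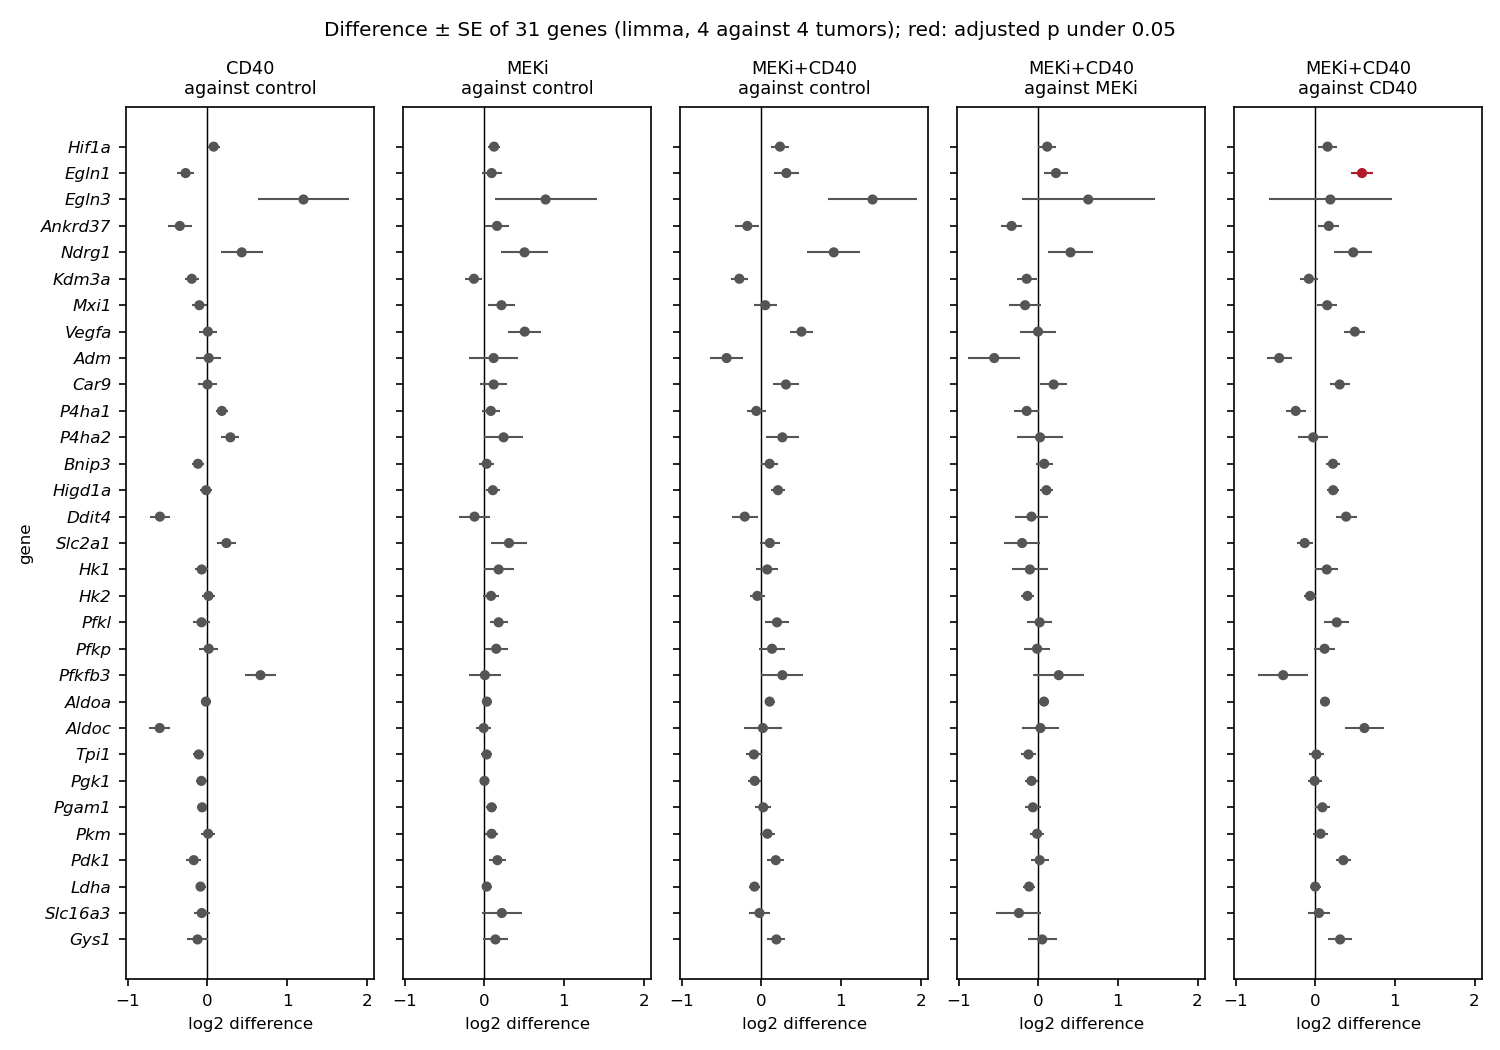
Points are log2 differences of 31 genes with bars of 1 SE, from limma on 4 against 4 tumors, in 5 comparisons, and red marks an adjusted p under 0.05. Egln1 in MEKi+CD40 against CD40 is the only red point, and Egln3 has the widest bars, with an SE of 0.55 to 0.84.

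Among the oxygen-sensing genes, Egln1 gave the called difference. It was at 11.54, 11.65, 11.42 and 11.17 in control tumors 1 to 4, at 11.22, 11.07, 11.14 and 11.26 in CD40 tumors, at 11.47, 11.42, 11.80 and 11.46 in MEKi tumors and at 11.41, 11.69, 12.04 and 11.90 in MEKi+CD40 tumors. Every MEKi+CD40 tumor lay above every CD40 tumor, and the CD40 tumors were the tightest group. The difference was 0.59 (SE 0.14, 1.50-fold, adjusted p = 0.0491). It comprised a value 0.27 below control in CD40 tumors (SE 0.11, adjusted p = 0.567) and one 0.32 above control in MEKi+CD40 tumors (SE 0.16, adjusted p = 0.296), neither of which was called. The interaction was 0.50 (SE 0.19, adjusted p = 0.235).

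The Egln1 call was close to the threshold. Leaving out any of 7 of the 8 tumors ended it, with adjusted p values of 0.0704 to 0.149 and differences of 0.49 to 0.62, and without MEKi+CD40 tumor 1 it was 0.70 (adjusted p = 0.0169). A second Egln1 probe set gave 0.17 (SE 0.14, adjusted p = 0.549), with CD40 tumors at 10.04 to 10.36 and MEKi+CD40 tumors at 10.09 to 10.75. Without the 3 tumors that held muscle transcripts the difference on the first probe set was 0.61 (adjusted p = 0.0447).

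Hif1a, the alpha subunit itself, is regulated mainly as a protein, and its transcript varied little on the probe set that stood for it, 1 of 4. Its levels were 12.93, 12.84, 12.76 and 12.78 in control, 12.92, 12.81, 13.01 and 12.89 in CD40, 12.93, 12.91, 12.89 and 13.07 in MEKi and 12.73, 13.17, 13.18 and 13.17 in MEKi+CD40 tumors. MEKi+CD40 tumors 2, 3 and 4 lay above the other 12 tumors and tumor 1 lay below them all, and the group differed from control by 0.24 (SE 0.12, adjusted p = 0.292).

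Egln3, a prolyl hydroxylase induced by HIF, varied most. It read 5.69, 5.98, 5.91 and 5.06 in control tumors, 5.46, 6.67, 8.69 and 6.65 in CD40 tumors, 5.73, 5.25, 8.67 and 6.07 in MEKi tumors and 8.82, 6.18, 7.03 and 6.20 in MEKi+CD40 tumors. All MEKi+CD40 tumors lay above all control tumors, by 1.40 on average (SE 0.55, adjusted p = 0.193). That difference was 0.81 without MEKi+CD40 tumor 1 and 0.53 without both MEKi+CD40 tumors with muscle transcripts. The 4 highest tumors, CD40 tumor 3, MEKi tumor 3 and MEKi+CD40 tumors 1 and 3, were the 4 in which the fibroblast genes averaged 11.02 to 12.44. The part of other cell types in the Egln3 level was not tested.

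**Figure D3:**
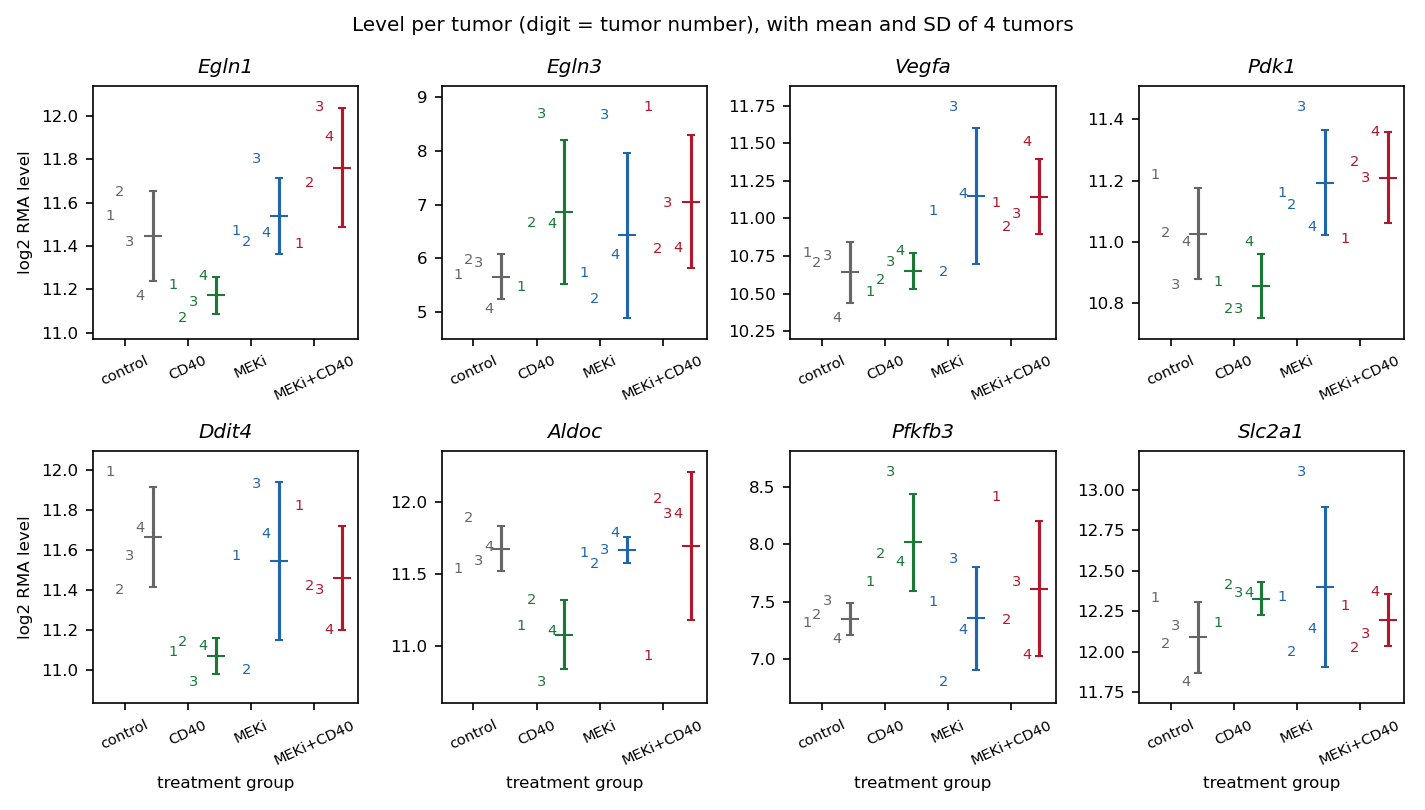
Each digit is the log2 level in 1 tumor, the digit being the tumor number, and the bars to the right show the mean and SD of 4 tumors. Egln1 and Ddit4 are tight and low in CD40 tumors, Aldoc is low there with a wider spread, and MEKi tumor 3 stands above its group for Egln1, Egln3, Vegfa, Pdk1 and Slc2a1.

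The regulators and other HIF targets, Ankrd37, Ndrg1, Kdm3a and Mxi1, held no called gene. Ndrg1, a stress-responsive gene, was at 10.73, 10.88, 10.55 and 9.55 in control, 10.95, 10.85, 10.60 and 11.04 in CD40, 10.79, 10.55, 11.53 and 10.86 in MEKi and 11.48, 10.63, 11.82 and 11.42 in MEKi+CD40 tumors. Control tumor 4 was the lowest of all 16, and MEKi+CD40 tumors averaged 0.91 above control (SE 0.34, adjusted p = 0.166) with overlapping groups, and 0.60 above it without tumors 1 and 3. The probe set that stood for Ndrg1 was of a design that may read related transcripts too. Ankrd37, an ankyrin repeat protein, was at 8.11, 7.59, 7.71 and 7.51 in control, 7.16, 7.51, 7.28 and 7.59 in CD40, 7.80, 7.80, 8.20 and 7.76 in MEKi and 7.76, 7.43, 7.36 and 7.67 in MEKi+CD40 tumors. The difference was −0.34 in MEKi+CD40 against MEKi (SE 0.13, adjusted p = 0.202) and −0.35 in CD40 against control (SE 0.15, adjusted p = 0.576), the latter −0.22 without control tumor 1.

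Kdm3a, a histone demethylase, was at 11.60, 11.37, 11.40 and 11.50 in control, 11.31, 11.41, 11.09 and 11.28 in CD40, 11.41, 11.23, 11.57 and 11.14 in MEKi and 10.94, 11.27, 11.19 and 11.37 in MEKi+CD40 tumors. Each treated group averaged below control, by 0.13 to 0.28, and the combination gave −0.28 (SE 0.11, adjusted p = 0.188), or −0.15 without its tumors 1 and 3. Mxi1, an antagonist of MYC, lay between 10.03 and 10.97, with its highest value in MEKi tumor 3.

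Of the secreted vascular factors, Vegfa averaged higher in both groups that received GDC-0623 on the probe set that stood for it, short of the call. Over all tumors, a second probe set did not show this in the combination. Vegfa, the main growth factor for blood vessels, was at 10.77, 10.70, 10.75 and 10.34 in control, 10.51, 10.59, 10.71 and 10.78 in CD40, 11.05, 10.64, 11.74 and 11.16 in MEKi and 11.10, 10.94, 11.03 and 11.51 in MEKi+CD40 tumors. All MEKi+CD40 tumors lay above all control and all CD40 tumors, while MEKi tumor 2 lay within the control range. The difference from control was 0.51 in MEKi (SE 0.21, adjusted p = 0.698) and 0.51 in MEKi+CD40 tumors (SE 0.15, adjusted p = 0.0987), and 0.01 in CD40 tumors (SE 0.11).

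Without MEKi tumor 3 the Vegfa difference in MEKi tumors was 0.31. MEKi+CD40 against CD40 gave 0.50 (SE 0.13, 1.41-fold, adjusted p = 0.0716). The second Vegfa probe set gave 0.43 in MEKi (SE 0.25, adjusted p = 0.771) and −0.05 in MEKi+CD40 tumors (SE 0.31, adjusted p = 0.942) against control. In MEKi+CD40 against CD40 it gave −0.23 (SE 0.30, adjusted p = 0.723), since MEKi+CD40 tumors 1 and 3 read 8.67 and 8.98 on it, against 9.31 and 10.24 in tumors 2 and 4 and 9.37 to 9.68 in CD40 tumors. In both comparisons of the combination the probe sets gave opposite signs for the same gene when all tumors were kept. Without the 3 tumors with muscle transcripts, the second probe set averaged higher in MEKi+CD40 than in control and in CD40 tumors. On the second probe set MEKi tumor 3 read 10.51, against 9.23 to 9.82 in the other MEKi tumors and 9.01 to 9.64 in control tumors.

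Adm, the vasodilator peptide adrenomedullin, ran the other way in the combination. It read 11.93, 11.19, 11.27 and 11.31 in control, 11.43, 11.27, 11.52 and 11.55 in CD40, 10.95, 11.07, 12.43 and 11.72 in MEKi and 10.70, 10.94, 10.88 and 11.44 in MEKi+CD40 tumors. In the combination group 3 of the 4 tumors were below every control and CD40 tumor, and the difference from CD40 was −0.45 (SE 0.16, adjusted p = 0.139), or −0.23 without the 3 tumors with muscle transcripts. MEKi tumor 3 was the highest of all 16.

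Car9, a cell-surface carbonic anhydrase that exports acid and is widely used as a hypoxia marker, was at 12.91, 12.95, 12.97 and 12.43 in control tumors, 12.84, 12.81, 12.73 and 12.89 in CD40 tumors, 12.88, 12.57, 13.29 and 12.99 in MEKi tumors and 12.84, 13.13, 13.09 and 13.44 in MEKi+CD40 tumors. Its differences from control were 0.00 (SE 0.12) in CD40, 0.12 (SE 0.17) in MEKi and 0.31 (SE 0.16, adjusted p = 0.318) in MEKi+CD40 tumors. Control tumor 4 was the lowest of all 16 tumors for Car9, as it was for Vegfa, and without it the MEKi+CD40 difference was 0.18. That difference was 0.47 without MEKi+CD40 tumors 1 and 3.

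The collagen prolyl hydroxylases P4ha1 and P4ha2, which modify collagen for folding, averaged 0.18 and 0.29 above control in CD40 tumors. P4ha2 was at 10.98, 10.90, 10.69 and 10.47 in control, 11.04, 11.10, 11.11 and 10.95 in CD40, 10.72, 10.76, 11.81 and 10.72 in MEKi and 11.23, 10.46, 10.99 and 11.42 in MEKi+CD40 tumors. The CD40 difference had an SE of 0.11 and an adjusted p of 0.567, and CD40 tumor 4 lay within the control range. P4ha1 lay between 10.29 and 11.09, with MEKi+CD40 tumor 1 lowest and MEKi tumor 3 highest.

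Ddit4, a stress-induced inhibitor of mTOR signalling, was among the genes that were lowest in CD40 tumors. It read 11.99, 11.40, 11.57 and 11.71 in control, 11.09, 11.14, 10.94 and 11.12 in CD40, 11.57, 11.00, 11.93 and 11.68 in MEKi and 11.82, 11.42, 11.40 and 11.20 in MEKi+CD40 tumors. All CD40 tumors lay below all control and all MEKi+CD40 tumors, and only MEKi tumor 2 among the others read as low. The difference from control was −0.60 (SE 0.12, 1.51-fold, adjusted p = 0.408), and MEKi+CD40 against CD40 gave 0.39 (SE 0.13, adjusted p = 0.133), or 0.19 without the 3 tumors with muscle transcripts.

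Higd1a, a mitochondrial protein of the hypoxia response, was at 13.26, 13.44, 13.30 and 13.17 in control, 13.28, 13.28, 13.22 and 13.33 in CD40, 13.39, 13.26, 13.51 and 13.44 in MEKi and 13.51, 13.42, 13.47 and 13.61 in MEKi+CD40 tumors. MEKi+CD40 tumors lay wholly above CD40 tumors, by 0.23 (SE 0.07, adjusted p = 0.114). A second probe set of the gene, of a design that may read related transcripts too, was called, at 0.91 (SE 0.19, adjusted p = 0.0379). On it CD40 tumors read 9.82 to 10.31 and MEKi+CD40 tumors 10.54 to 11.28. The remaining probe set gave 0.83 (SE 0.28, adjusted p = 0.139). Bnip3, which acts in the removal of mitochondria, lay between 13.41 and 13.87, with the 4 CD40 tumors at 13.45 to 13.49.

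Glucose uptake and the hexose steps held no called gene. Slc2a1, the glucose transporter GLUT1 gene, was at 12.33, 12.05, 12.16 and 11.81 in control, 12.18, 12.41, 12.36 and 12.36 in CD40, 12.34, 12.00, 13.11 and 12.14 in MEKi and 12.28, 12.02, 12.11 and 12.37 in MEKi+CD40 tumors. MEKi tumor 3 was the highest of all 16 tumors, and the groups overlapped, with a MEKi difference of 0.31 (SE 0.23, adjusted p = 0.813) that was 0.07 without that tumor. Hk2, the inducible hexokinase, was at 12.59, 12.44, 12.51 and 12.25 in control, 12.48, 12.46, 12.43 and 12.48 in CD40, 12.57, 12.43, 12.69 and 12.44 in MEKi and 12.32, 12.48, 12.33 and 12.46 in MEKi+CD40 tumors. Its widest difference, MEKi+CD40 against MEKi, was −0.14 (SE 0.09, adjusted p = 0.442).

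Pfkfb3, which makes the activator of phosphofructokinase, was higher in CD40 than in control tumors in every tumor. It was at 7.32, 7.39, 7.51 and 7.18 in control, 7.67, 7.92, 8.63 and 7.85 in CD40, 7.50, 6.80, 7.87 and 7.26 in MEKi and 8.41, 7.34, 7.67 and 7.04 in MEKi+CD40 tumors. The difference was 0.67 (SE 0.19, 1.59-fold, adjusted p = 0.511), and 0.46 without CD40 tumor 3. The 2 highest tumors, CD40 tumor 3 and MEKi+CD40 tumor 1, held muscle transcripts and had the 2 highest means of 7 macrophage genes, 10.94 and 10.30, against 5.42 to 9.79 in the other tumors. The part of those cells in the Pfkfb3 level was not tested.

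Pfkl, the liver form of phosphofructokinase, was at 11.32, 11.51, 11.29 and 11.17 in control, 11.33, 11.14, 11.11 and 11.42 in CD40, 11.55, 11.27, 11.73 and 11.46 in MEKi and 11.10, 11.53, 11.67 and 11.78 in MEKi+CD40 tumors. Its difference from control was 0.18 in MEKi (SE 0.11, adjusted p = 0.787) and 0.20 in MEKi+CD40 tumors (SE 0.15). The platelet form Pfkp ranged from 12.24 to 13.06 and hexokinase 1, Hk1, from 11.00 to 12.06, with MEKi tumor 3 highest for Hk1 and MEKi+CD40 tumor 4 for Pfkp.

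The enzymes from aldolase to pyruvate kinase varied little between groups, with the exception of Aldoc. Aldoa, the main aldolase, was at 14.07, 14.13, 14.07 and 14.06 in control, 14.05, 14.06, 14.05 and 14.10 in CD40, 14.10, 14.05, 14.14 and 14.17 in MEKi and 14.17, 14.18, 14.23 and 14.17 in MEKi+CD40 tumors. MEKi+CD40 tumors lay wholly above control, by 0.11 (SE 0.06, adjusted p = 0.385), and above CD40 tumors, by 0.12 (SE 0.06, adjusted p = 0.308). The probe set that stood for Aldoa was of a design that may read other transcripts too. The highest value of any probe set in the table was 14.75, and signals near the top of an array's range can understate a difference.

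Gapdh, often taken as a constant reference, was at 14.41, 14.47, 14.42 and 14.34 in control, 14.43, 14.39, 14.41 and 14.37 in CD40, 14.43, 14.42, 14.42 and 14.50 in MEKi and 14.32, 14.51, 14.53 and 14.51 in MEKi+CD40 tumors. Its group means differed by at most 0.07, with two-sided exact permutation p values of 0.200 to 0.829, where 0.0286 is the smallest that 4 against 4 tumors allow. Tpi1, Pgk1, Pgam1 and Pkm stayed within ranges of 13.89 to 14.27, 13.95 to 14.26, 13.20 to 13.62 and 13.12 to 13.47, and MEKi+CD40 tumor 1 was the lowest of its group for all 4.

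Aldoc, an aldolase form also expressed in brain, was lower in CD40 tumors than in any control tumor. It read 11.54, 11.89, 11.59 and 11.69 in control, 11.14, 11.32, 10.75 and 11.11 in CD40, 11.65, 11.57, 11.67 and 11.79 in MEKi and 10.93, 12.02, 11.92 and 11.92 in MEKi+CD40 tumors. The 2 lowest values were those of CD40 tumor 3 and MEKi+CD40 tumor 1, both with muscle transcripts. The difference from control was −0.60 (SE 0.13, 1.51-fold, adjusted p = 0.441), and −0.49 without CD40 tumor 3, and a second probe set gave −0.70 (SE 0.15, adjusted p = 0.441), again without overlap.

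In MEKi+CD40 against CD40 tumors Aldoc differed by 0.62 (SE 0.25, adjusted p = 0.195) on the probe set that stood for it. On the second probe set it was called, at 1.04 (SE 0.22, 2.05-fold, adjusted p = 0.0395), with MEKi+CD40 tumors at 6.84 to 7.76 and CD40 tumors at 6.14 to 6.69. Without MEKi+CD40 tumor 1, and without the 3 tumors with muscle transcripts, Aldoc was called on the first probe set too.

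Pdk1, the kinase that holds pyruvate back from the mitochondria, was at 11.22, 11.03, 10.86 and 11.00 in control, 10.87, 10.78, 10.78 and 11.00 in CD40, 11.16, 11.12, 11.44 and 11.05 in MEKi and 11.01, 11.26, 11.21 and 11.36 in MEKi+CD40 tumors. MEKi+CD40 tumors lay wholly above CD40 tumors, by 0.35 (SE 0.10, 1.28-fold, adjusted p = 0.0787), with the lowest of the former at 11.01 and the highest of the latter at 11.00. Without MEKi+CD40 tumor 1 the difference was 0.42 and was called (adjusted p = 0.0321). Its 3 other probe sets gave 0.84, 0.07 and −0.21, none of them called.

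Ldha, which turns pyruvate to lactate, was at 13.99, 14.03, 13.96 and 13.93 in control, 13.88, 13.89, 13.88 and 13.92 in CD40, 14.02, 13.98, 14.00 and 14.03 in MEKi and 13.81, 13.93, 13.83 and 14.00 in MEKi+CD40 tumors. CD40 tumors lay wholly below control, by 0.09 (SE 0.06, adjusted p = 0.741), a small separation between tight groups. Slc16a3, the lactate exporter gene, lay between 7.46 and 8.84, and Gys1, muscle-type glycogen synthase, between 10.34 and 11.23, both with MEKi tumor 3 highest.

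Within the groups, single tumors stood apart over many of the genes. MEKi tumor 3 was the highest of its group for 23 of the 32 genes, by a median of 0.36 over the mean of the other 3 tumors, and its median over the 32 genes was 0.41 above the control mean. In the other 15 tumors that median ran from −0.13 in control tumor 4 to 0.28 in MEKi+CD40 tumor 4. MEKi tumor 3 also had the lowest mean of 7 endothelial genes, 5.76 against 6.66 to 8.12 in the others, and a high fibroblast mean, 11.59, with muscle genes at 4.62. The part of these cells in its levels was not tested.

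Other tumors stood apart within their groups as well. Control tumor 4 was the lowest of its group for 22 of 32 genes, MEKi tumor 2 for 21 and MEKi+CD40 tumor 1 for 20, and MEKi+CD40 tumor 4 was the highest for 20. In MEKi+CD40 tumor 1 the 16 genes of glucose uptake, glycolysis and lactate had a median of −0.15 from control, and the 16 other genes a median of 0.03.

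The median SD of the 32 genes among the 4 tumors of a group was 0.139 in control, 0.092 in CD40, 0.199 in MEKi and 0.231 in MEKi+CD40 tumors. Over all genes the corresponding medians were 0.133, 0.141, 0.139 and 0.178. Without MEKi tumor 3 the MEKi value was 0.114, against 0.116 over all genes. The CD40 tumors were therefore the most alike for these genes, a description for which no test was run.

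**Figure D4:**
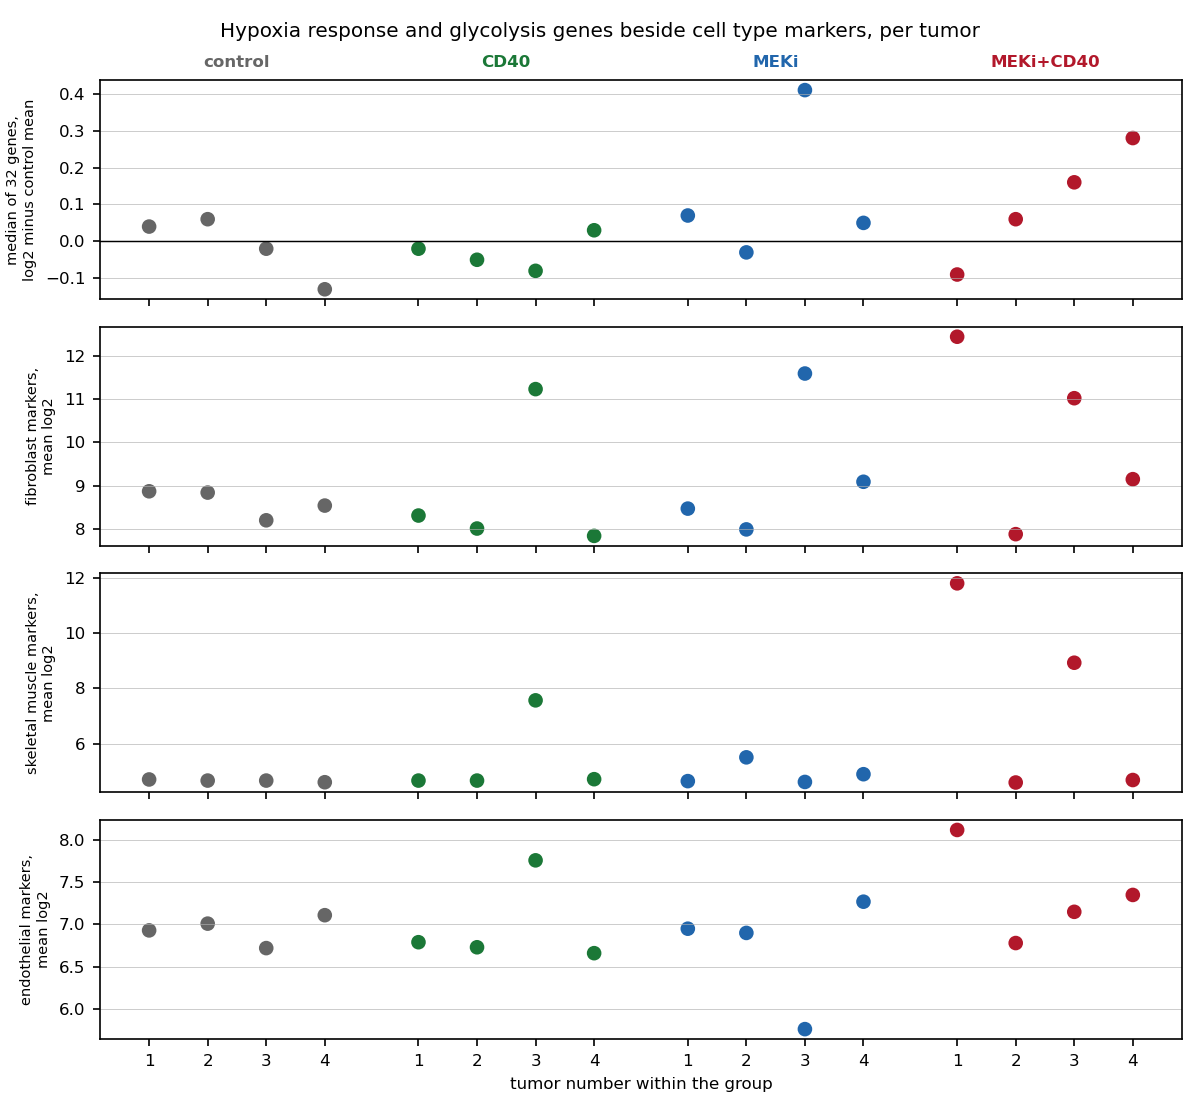
Each point is 1 tumor: from the top, the median over 32 genes of the log2 level minus the control mean, then the mean log2 levels of fibroblast, skeletal muscle and endothelial genes. MEKi tumor 3 is highest in the top panel at 0.41 and lowest in the endothelial panel at 5.76, and MEKi+CD40 tumor 1 is highest for the 3 marker lists.

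Of 90 further genes of oxygen sensing, HIF targets, glycolysis and glycogen, 79 were measured. None was called in CD40, MEKi or MEKi+CD40 against control. At an unadjusted p under 0.05 in limma, 3 were higher and 12 lower in CD40, 0 higher and 3 lower in MEKi, and 10 higher and 8 lower in MEKi+CD40 tumors, where 9.98%, 7.9% and 25.4% of all genes passed in either direction. In CD40 against control the smallest p values were those of Tfrc, the transferrin receptor, at −0.66 (SE 0.15, adjusted p = 0.441), and Narf, at −0.37 (SE 0.10, adjusted p = 0.506). In MEKi against control they were those of Hk3, the hexokinase of leukocytes, at −2.09 (SE 0.54, adjusted p = 0.570), and Eno3, the muscle enolase, at −0.72 (SE 0.27, adjusted p = 0.686). For Eno3, MEKi tumor 3 read 8.86, against 9.64, 9.91 and 10.23 in the other MEKi tumors and 10.14 to 10.81 in control tumors.

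Hk3 was at 6.17, 7.24, 8.76 and 8.48 in control tumors and at 6.02, 5.06, 6.14 and 5.07 in MEKi tumors, with no overlap. The macrophage genes averaged 6.90 to 9.04 in control and 5.42 to 8.01 in MEKi tumors, and their part in the Hk3 level was not tested.

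Some glycolytic isoforms outside the 34 genes were called in the combination. Against MEKi tumors 3 of the 79 genes rose and none fell, beside 1.55% of all genes called, and against CD40 tumors 6 rose and 1 fell, beside 6.44% of all genes called. Pfkm, the muscle form of phosphofructokinase, rose by 0.64 over MEKi (SE 0.11, adjusted p = 0.0496) and by 0.85 over CD40 tumors (SE 0.12, 1.80-fold, adjusted p = 0.0251). It was at 9.36, 9.80, 9.54 and 9.61 in control, 9.28, 9.07, 9.49 and 9.39 in CD40, 9.56, 9.29, 9.53 and 9.68 in MEKi and 10.38, 10.02, 10.18 and 10.05 in MEKi+CD40 tumors. All MEKi+CD40 tumors lay above the other 12 tumors. Muscle genes averaged 11.80, 4.60, 8.93 and 4.69 in the 4 MEKi+CD40 tumors, and without the 3 tumors with muscle transcripts the Pfkm difference was 0.52 over MEKi and 0.79 over CD40 tumors. The part of muscle cells in the Pfkm level was not tested.

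Pdk2, a relative of Pdk1, was below the background level of 4.94 in every MEKi and every CD40 tumor, so its rise has only a lower bound. Taken against that level, its MEKi+CD40 mean was at least 2.44-fold higher than in MEKi (limma adjusted p = 0.0496) and in CD40 tumors (limma adjusted p = 0.0302). It was at 4.67 to 5.18 in control, 4.38 to 4.92 in CD40, 4.51 to 4.88 in MEKi and 6.54, 5.55, 6.72 and 6.09 in MEKi+CD40 tumors. The 2 highest values, 6.54 and 6.72, were those of MEKi+CD40 tumors 1 and 3, which held muscle transcripts. The bound was not computed without them, and the part of muscle cells in the Pdk2 level was not tested. Pfkfb2, a relative of Pfkfb3, rose by 0.96 over MEKi tumors (SE 0.17, adjusted p = 0.0496). Against control the smallest p values in the combination were those of Pygl, liver glycogen phosphorylase, at 1.35 (SE 0.26), and Pdk2, at 1.29 (SE 0.25) with 2 of the 4 control tumors below background, both with an adjusted p of 0.0517. Against MEKi no probe set on the array was called without MEKi tumor 1, 2 or 3, without MEKi+CD40 tumor 3, without the 3 tumors with muscle transcripts, or with cyclic loess or median centring of the arrays. Against CD40 none was called without CD40 tumor 2 or 4. In the interaction none of the 79 genes was called in limma, 15 were positive and 5 negative at an unadjusted p under 0.05, beside 17.6% of all genes in either direction, and the smallest p values were those of Pfkm, at 0.91 (SE 0.17), and Pdk2, both with an adjusted p of 0.0971.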

How the data were processed

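RNA of 16 tumors (200 ng each, per the labels) was labelled by a 3′ method and hybridised to Affymetrix mouse arrays. The deposited log2 values had been made by the authors with RMA, of a version not given in the sources, and were used without further normalization. Of 45101 probe sets, 64 controls were left out. Of the 45037 tested, 34945 carried 1 gene symbol, 932 several and 9160 none. Background was the 95th percentile of 44 olfactory receptor probe sets.

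Groups came from the sample labels. Pairs of groups were fitted on their 8 arrays and the interaction on all 16 arrays, by limma 3.58.1 (R 4.3.3), and genes were called at a p under 0.05 after Benjamini-Hochberg adjustment over all probe sets. The script was tested on simulated data. Gapdh was compared by exact permutation. The members, the lists, the tests and the alternatives (given with their effects below) were chosen with earlier results of these data known. Values per tumor are given for members called, the 4 of smallest p per pair and 9 genes by name. Of the further genes, the 2 of smallest p per pair are named, with values per tumor for only some of them. The values added for Hk3, Eno3, Pfkm and Pfkfb2 were chosen after being seen. Replicates are tumors that the labels separate. Python 3.11.15 with pandas 2.3.3, NumPy 2.4.6 and, for plots, matplotlib 3.10.9 was used.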

Additional observations from a re-analysis of the deposited data

Results flagged for a closer look

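Within a group of 4 tumors, a tumor was singled out when its gap to the nearest tumor exceeded Dixon's 95% critical share of the group's range. Of 128 groups of 4 values examined, 14 (10.94%) met this, where about 5% would by chance, and genes read in the same tumor are not independent of each other.

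MEKi tumor 3 was the high one for Egln1 (0.868 of the range), Ankrd37 (0.909) and P4ha2 (0.963). MEKi+CD40 tumor 1 was the low one for Hif1a (0.978), Aldoc (0.908) and Gapdh (0.905). Control tumor 4 was the low one for Vegfa (0.837) and Car9 (0.889).

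CD40 tumor 4 was low for P4ha1 (0.850) and high for Gys1 (0.889). Control tumor 1 was high for Adm (0.838) and control tumor 2 for Aldoa (0.857). MEKi tumor 4 was high for Gapdh (0.875) and MEKi+CD40 tumor 3 for Aldoa (0.833), both over ranges of at most 0.08.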

How the results depend on the processing

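The counts of genes called in MEKi+CD40 against CD40 changed with the processing. The count was 1 as reported, 2 with all 16 arrays in 1 fit, 2 with cyclic loess, 0 with median centring, 0 when the probe sets of each gene were averaged (Egln1 0.38, adjusted p = 0.126) and 0 with the replicate block, where none of 45037 probe sets was called, against 2133 without it. Same-numbered tumors did not deviate together, with correlations of −0.52 to 0.42, of which 6 of 20 were over 0.1 and 3 were the best of their tumor, so the numbers do not pair the tumors. Leaving out each tumor gave 0 to 3 genes, namely 0 without any single CD40 tumor or without MEKi+CD40 tumor 3 or 4, and 3 without MEKi+CD40 tumor 1 (Aldoc, Egln1 and Pdk1). Without MEKi+CD40 tumor 2 the gene called was Ndrg1. The count was 2 without the 3 tumors with muscle transcripts (Aldoc and Egln1) and 4 with the muscle score as a covariate (Aldoc, Egln1, Pdk1 and Pfkfb3). Pdk1 was the second gene with all arrays (adjusted p = 0.0396) and with cyclic loess (adjusted p = 0.0328). In the other comparisons and the interaction no member was called under any alternative run. No called difference changed sign. Over all alternatives run, the median difference of the 31 genes lay between −0.09 and −0.01 in CD40 against control, 0.02 and 0.19 in MEKi against control, 0.03 and 0.16 in MEKi+CD40 against control, 0.07 and 0.17 in MEKi+CD40 against CD40 and −0.11 and 0.08 in MEKi+CD40 against MEKi, where its sign turned.

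Calls over all probe sets were unstable too. Leaving out each tumor gave 0 to 3508 in MEKi+CD40 against CD40, 0 to 1454 against MEKi (518 with all tumors), 0 to 2327 against control (4 with all tumors) and 0 to 560 in the interaction (0 with all tumors). All arrays in 1 fit gave 5309, 4699 and 4904 in the first 3. The fit without the 3 muscle-bearing tumors was not run for MEKi against control, where neither group held one. The number of arrays limited precision, with a median SE of 0.10 to 0.16 for the 31 genes in the comparisons between pairs of groups.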
